A study of Caenorhabditis elegans with 93 samples.

Results

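The cyp-14A genes of C. elegans, cyp-14A1, cyp-14A2, cyp-14A3, cyp-14A4 and cyp-14A5, encode cytochrome P450 enzymes. They were taken by name from the 27790 genes of the RNA-seq table, all 5 were found, and they were chosen by the RNA-seq time course of cyp-14A5, whose expression stayed changed over many generations. Their RNA-seq values are therefore given as a description, without a test. Tests are given for chromatin accessibility, which did not enter the choice. The table of regulatory elements holds 31618 elements of 150 bases, and 7 of them lie within 2 kb of a cyp-14A gene. None of the 5 genes is among the 8479 genes of the 22G-RNA table.

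The embryos came from N2, the standard laboratory strain, an untreated wild type that reproduces mainly as self-fertile hermaphrodites. Lineages A, B and C were kept in parallel at 20 degrees, and each new generation was founded by 2 animals, which limits selection. Generation 0, also called the PMA (pre-mutation accumulation) generation, came before this restriction. Adults and the embryos washed off with them were bleached, the embryos were pooled, and their RNA, small RNA and accessible DNA were sequenced (RNA-seq, small RNA-seq, ATAC-seq) for generation 0 and every even generation up to 20. Each data type has 31 libraries, 3 of generation 0 and 28 of later generations, with 1 library per lineage and generation. Not analysed here are generation 4 in lineage B, for each data type, and in lineage C generation 14 for RNA-seq and small RNA-seq and generation 8 for ATAC-seq. Generations of 1 lineage descend from each other, so that p-values over libraries treat relatives as separate samples.

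Cytochrome P450s are heme enzymes of phase 1 of detoxification, which add a reactive oxygen group to toxins, drugs and internal lipids. Enzymes of phase 2 then attach larger groups and transporters remove the product. In C. elegans many P450 genes are used in the intestine of larvae and adults and respond to foreign chemicals, and the reductase EMB-8 supplies electrons to the P450s of the endoplasmic reticulum. The cyp-35 genes are other P450 genes often followed as markers of exposure to foreign chemicals.

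The first 4 of the genes lie on chromosome X and cyp-14A5 on chromosome V, all on the minus strand, and each has 1 annotated transcript with 7 exons in Ensembl release 115 (assembly WBcel235). In the deposited table cyp-14A1 (WBGene00010705) spans 13265041 to 13267356 of chromosome X, cyp-14A2 (WBGene00010706) spans 13267562 to 13269715, and cyp-14A3 (WBGene00010707) spans 13271837 to 13274218, so that these 3 stand head to tail. The gene cyp-14A4 (WBGene00011009) follows at 13282045 to 13284204, with the gene phf-33 between it and cyp-14A3. On chromosome V, cyp-14A5 (WBGene00000373) spans 5421018 to 5423488. The exonic lengths are alike, between 1533 and 1561 bases. The aligner was run without an option for reads that match several places, in which case it reports 1 place per read. Reads that match neighbouring copies equally well could thus be split between them, and levels of cyp-14A1 to cyp-14A4 are uncertain to that extent. The small RNA genes K09A11.10, K09A11.8 and K09A11.9 lie on the plus strand within cyp-14A2 and cyp-14A3. The counting command names no strand option, so that reads of either strand count for both genes. None of the 3 exceeded 6.38 normalized counts in any library, but cyp-14A3 itself had a later median of 4.68. In generation 12 of lineage C cyp-14A3 held 14 reads, K09A11.8 6 and K09A11.9 2. In generation 10 of lineage B they held 22, 4 and 3, and in generation 16 of lineage A 10, 2 and 0. The part of shared reads in the cyp-14A3 values was not tested.

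In these embryos cyp-14A5 was the abundant member. Per kb of exon its mean over the 31 libraries was 1689 normalized counts, against 16.8 for cyp-14A1, 7.35 for cyp-14A2, 4.78 for cyp-14A4 and 3.92 for cyp-14A3. The spread between libraries overlapped for each neighbouring pair in this order except cyp-14A5 and cyp-14A1, whose lowest and highest values were 257 and 45.8 normalized counts per gene. In generation 0 the level of cyp-14A5 was 177 normalized counts per kb of exon, still above the mean of each other member. A normalized count is a read count that the authors divided by the size factor of its library, and with between 42039288 and 49318096 reads per RNA-seq library 1 read is close to 1 normalized count.

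The level of cyp-14A5 stepped up between generation 0 and generation 2 in every lineage and stayed up. Generation 0 held 274 normalized counts in lineage A, 257 in lineage B and 296 in lineage C. Generation 2 held 2249 in lineage A, 2761 in lineage B and 1195 in lineage C. Over generations 2 to 20, lineage A ranged from 2232 to 4231 with a median of 3394. Lineage B ranged from 1453 to 3131 with a median of 2534, and lineage C from 1195 to 5523 with a median of 2792. All 28 later libraries lay above all 3 libraries of generation 0, in a gene chosen by this course. The same held for nhr-8, sqt-3, ifb-2, irg-1 and mtl-1, which are named below. Among all genes tested 39.6% changed between these groups by limma, and the share without overlap is not given here. Relative to generation 0 of the same lineage, cyp-14A5 stood between 8.14-fold and 15.4-fold in later libraries of lineage A. The range was 5.65-fold to 12.2-fold in lineage B and 4.04-fold to 18.6-fold in lineage C. The mean log2 difference over the lineages was 3.28 ± 0.23 (SD, n = 3 lineages), a 9.72-fold higher level.

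**Figure D1:**
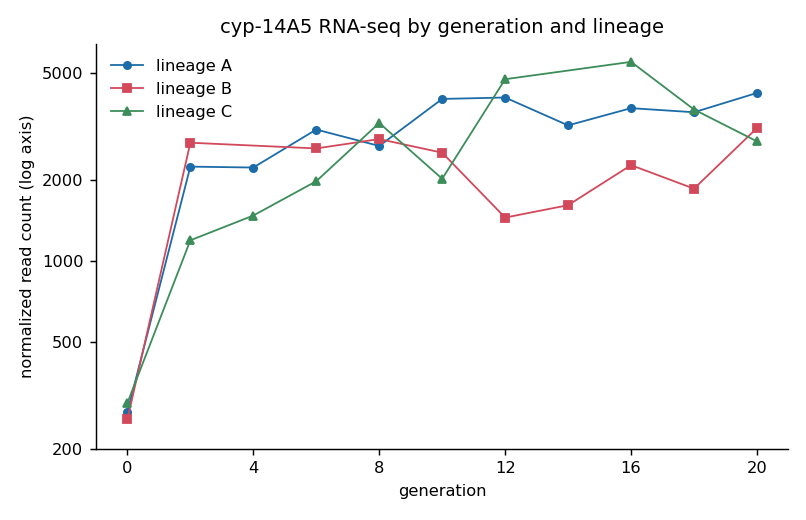
Normalized read count of cyp-14A5 (log axis) against generation, 1 point per RNA-seq library and 1 line per lineage. The 3 points of generation 0 lie between 257 and 296, and the 28 later points lie between 1195 and 5523.

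After the step the 3 lineages followed different courses. Lineage C started lowest, at 1195 normalized counts in generation 2, and reached the highest value of all libraries, 5523, in generation 16. Lineage B fell to 1453 in generation 12 and stood at 3131 in generation 20. The coefficient of variation over later libraries was 22.3% in lineage A, 24.9% in lineage B and 49.95% in lineage C, against 7.09% between the 3 libraries of generation 0. Each of these counts rests on at least 266 reads, so that counting error is small beside the spread of later libraries.

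Each later library was also compared with generation 0 of its own lineage through a linear model over all genes, and its standardized residual (Z-score) was called UP or DOWN past the cut-off that the methods give for either direction. A run of UP or DOWN calls over at least 2 consecutive sampled generations was taken as inherited. The paper also set aside changes that began together and lasted equally long in every lineage, since the environment might have induced them. That rule is not part of the definition used here. Over all genes and later libraries 4.75% of RNA-seq values were called, and 2.65% were called UP. For cyp-14A5, 27 of 28 values were UP, and since this measure chose the gene the count is a description. The exception was generation 2 of lineage C, with a Z-score of 1.93. The runs covered all 10 sampled later generations in lineage A, all 9 in lineage B and the last 8 in lineage C. In generation 2 the level of cyp-14A5 was already 8.20-fold, 10.7-fold and 4.04-fold that of generation 0 in lineages A, B and C. Every run was scored against the generation 0 library of its own lineage. Whether the runs reflect inheritance or a shift from generation 0 shared by the lineages was not tested.

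The X-linked genes gave only low counts, and their groups overlapped. For cyp-14A1, generation 0 held 15.7, 18.4 and 8.74 normalized counts in lineages A, B and C, and later libraries ranged from 0 to 45.8 with a median of 27.8. Of the later libraries 23 lay above all of generation 0 and 2 below it. Generation 2 was low, with 10.4 in lineage A, 11.9 in lineage B and 0 in lineage C, and all 3 libraries of generation 10 lay between 37.3 and 44.7. The mean log2 difference from generation 0 was 0.70 ± 0.36 (SD, n = 3 lineages). For cyp-14A2, generation 0 held 11.1, 5.802 and 2.19, and later libraries ranged from 1.10 to 27.4 with a median of 11.2. Its log2 difference was -0.03 in lineage A, 0.62 in lineage B and 1.75 in lineage C, so that the lineages differed by more than the mean of 0.78. Of the 28 later libraries 14 lay above all of generation 0 and 2 below. Among all genes tested 39.6% changed between these groups by limma. The share of genes with such counts of libraries is not given here, so that the counts of both genes are descriptions only.

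For cyp-14A3, generation 0 held 6.46, 7.74 and 7.65 normalized counts, and later libraries ranged from 0 to 19.01 with a median of 4.68. Of these, 18 lay below all of generation 0 and 6 above it, and the share of all genes with such counts is not given here. Its highest values were in libraries that stand apart. In 4 later RNA-seq libraries (generation 16 of lineage A, generation 10 of lineage B, and generations 12 and 18 of lineage C) between 3478 and 4789 genes had no reads, against between 5431 and 7197 in the other 27 libraries. These 4 libraries held between 9.80 and 19.01 normalized counts of cyp-14A3, and ranked between 1 and 5 of 31, while the other 24 later libraries lay between 0 and 9.91. Without them the log2 difference of cyp-14A3 from generation 0 moved from -0.51 ± 0.26 to -0.75 ± 0.21 (SD, n = 3 lineages), and that of cyp-14A5 from 3.28 to 3.20. The part of these libraries in the cyp-14A3 values was not tested.

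The gene cyp-14A4 went up and down most relative to its mean. Generation 0 held 6.46 normalized counts in lineage A, 17.4 in lineage B and 1.09 in lineage C, and later libraries ranged from 0 to 27.0 with a median of 5.28. No lineage stayed on one side of its generation 0. In generation 2 the libraries held 0 reads in lineages A and C and 1 read in lineage B, while in generation 4 they held 26 reads in lineage A and 20 in lineage C. Exact Poisson intervals (95%) ran from 16.98 to 38.1 reads and from 12.2 to 30.9 reads in generation 4. For a count of 0 the 1-sided 95% limit is 3 reads. These neighbouring generations, picked after the data had been seen, thus differed by more than the counting error of independent reads. Generation 12 held 25.6, 7.70 and 17.003 normalized counts in lineages A, B and C, and generation 20 held 1.86, 1.98 and 1.04. In 6 of the 28 later libraries no read was counted. The variance of the recovered reads over the 31 libraries was 8.74 times their mean. It was 3.33 times the mean for cyp-14A3, 3.65 for cyp-14A2 and 5.53 for cyp-14A1. Counting error alone would give 1 if reads were independent. Both ends of a fragment were sequenced, and the counting command names no option to count a pair once. Counting error may therefore be larger than the intervals, the limits and the value of 1 allow for. The intervals and limits cover counting error of independent reads only.

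**Figure D2:**
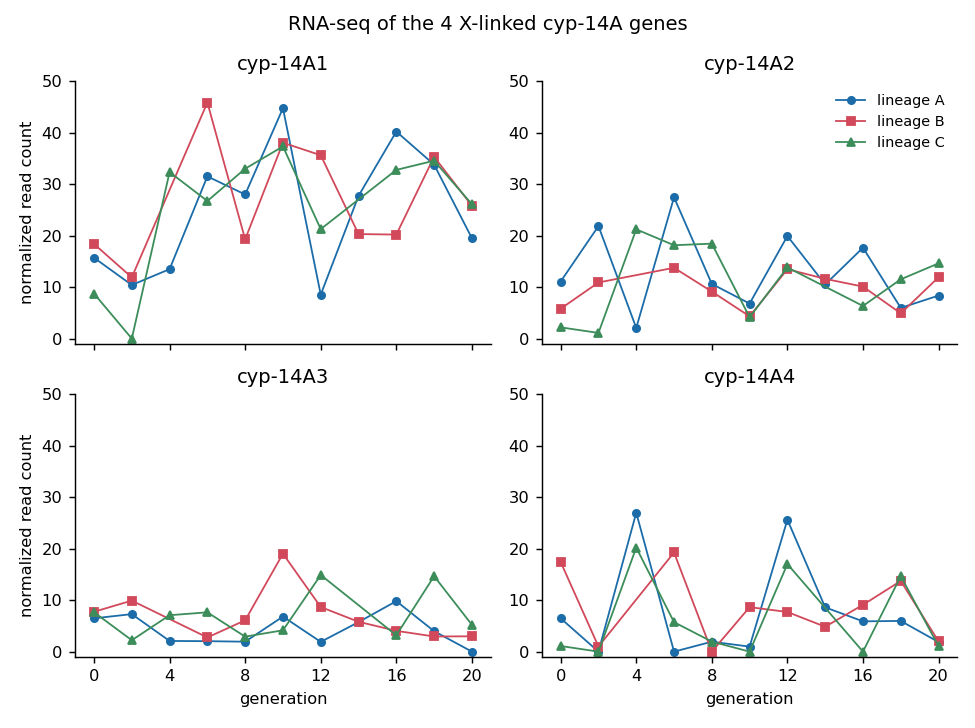
Normalized read count against generation for cyp-14A1, cyp-14A2, cyp-14A3 and cyp-14A4, 1 point per RNA-seq library and 1 line per lineage. The counts stay at or below 45.8, later and generation 0 libraries overlap for each gene, and cyp-14A4 is at 0 or 1 read in generation 2 of every lineage and at 20 or 26 reads in generation 4.

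By Z-score, 1 of 28 values of cyp-14A1 was DOWN, in generation 2 of lineage C. For cyp-14A2, 2 values were UP and formed a run of 2 generations in lineage C. Generation 0 of that lineage rests on 2 reads of cyp-14A2. Against the mean of the 3 libraries of generation 0, 0 values of cyp-14A2 were called. For cyp-14A3, 1 value was DOWN, and for cyp-14A4, 3 were UP, all in lineage C, and 6 were DOWN, 3 each in lineages A and B, without any run. Generation 0 of lineage C, to which those 3 UP values were compared, rests on 1 read of cyp-14A4. The 6 DOWN values of cyp-14A4 rest on 0 to 2 reads each, and the DOWN value of cyp-14A3 on 0 reads. Over all genes and later libraries 4.75% of RNA-seq values were called. Across the 31 libraries, with lineage means removed, Pearson's r of log2(count + 1) between members ranged from -0.14 for cyp-14A3 with cyp-14A5 to 0.43 for cyp-14A1 with cyp-14A2. These are descriptions over libraries that share lineages and processing, and at these counts most of the pairs carry large counting error.

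Chromatin accessibility was measured by ATAC-seq, where a transposase inserts into open DNA, and the values are normalized counts per element. Upstream of each cyp-14A gene lies 1 element within 125 bases of the annotated 5′ end. The cyp-14A1 upstream element, at 13267365 to 13267514 of chromosome X, has its centre 84.5 bases upstream of that gene, and in the gap between it and the 3′ end of cyp-14A2. The cyp-14A2 upstream element, at 13269704 to 13269853, has its centre 92.5 bases upstream and overlaps no annotated gene. The cyp-14A3 upstream element, at 13274192 to 13274341, has its centre 64.5 bases upstream and reaches into the 5′ UTR and coding sequence of the exon at that end. The cyp-14A4 upstream element lies at 13284200 to 13284349, its centre 77.5 bases upstream, outside annotated genes. On chromosome V the cyp-14A5 upstream element, at 5423331 to 5423480, has its centre 123.5 bases upstream of the annotated end but within the span that the deposited table gives the gene. The other elements near cyp-14A5 are a distal upstream element at 5425176 to 5425325, which overlaps exons of the non-coding genes linc-96 and F08F3.12, and a downstream element at 5420012 to 5420161, which overlaps the 5′ UTR of the neighbouring gene F08F3.6.

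Accessibility passed the test for a difference between generation 0 and later generations at none of the 7 elements (limma). At the cyp-14A5 upstream element generation 0 held 35.7, 44.5 and 45.1 normalized counts in lineages A, B and C, and later libraries ranged from 33.3 to 79.5 with a median of 52.8. The groups overlapped. The log2 difference of later libraries from generation 0 was 0.33 ± 0.20 (SE, limma, adjusted p = 0.563). Its 95% interval ran from -0.08 to 0.74, with an upper end of 1.67-fold, and treats related libraries as separate samples. Without lineage A, B or C the difference was 0.16 ± 0.25, 0.38 ± 0.26 or 0.44 ± 0.23 (SE, limma). The distal upstream element held between 57.5 and 71.8 in generation 0 and between 53.6 and 98.4 later, a log2 difference of 0.19 ± 0.16 (SE, limma, adjusted p = 0.713). The downstream element was the most accessible of the 7, with 154 to 161 normalized counts in generation 0 and 98.2 to 204 later, and its log2 difference was -0.07 ± 0.13 (SE, limma, adjusted p = 0.909).

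At the X-linked genes the highest estimate was at the cyp-14A3 upstream element, which held 86.2, 77.4 and 69.5 normalized counts in generation 0 and between 64.9 and 129 later. Its log2 difference was 0.29 ± 0.15 (SE, limma, adjusted p = 0.455), while the RNA of cyp-14A3 had a mean difference of -0.51. The cyp-14A2 upstream element held between 25.1 and 42.3 in generation 0 and between 20.8 and 63.9 later, with a difference of 0.28 ± 0.24 (SE, limma, adjusted p = 0.724). The cyp-14A1 upstream element held between 53.6 and 58.8 in generation 0 and between 36.6 and 80.5 later, and the cyp-14A4 upstream element between 64.5 and 106 and between 64.9 and 120. Their differences were 0.06 ± 0.20 and 0.15 ± 0.14 (SE). By limma none of the 7 elements passed the adjusted threshold of 0.05 or an unadjusted one. Across all 31498 elements tested 0% passed (0 of 31498), with 3587 at an unadjusted p under 0.05. No element near a cyp-14A gene passed by edgeR or DESeq2 either, which gave 1 of the 7 each at an unadjusted p under 0.05.

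**Figure D3:**
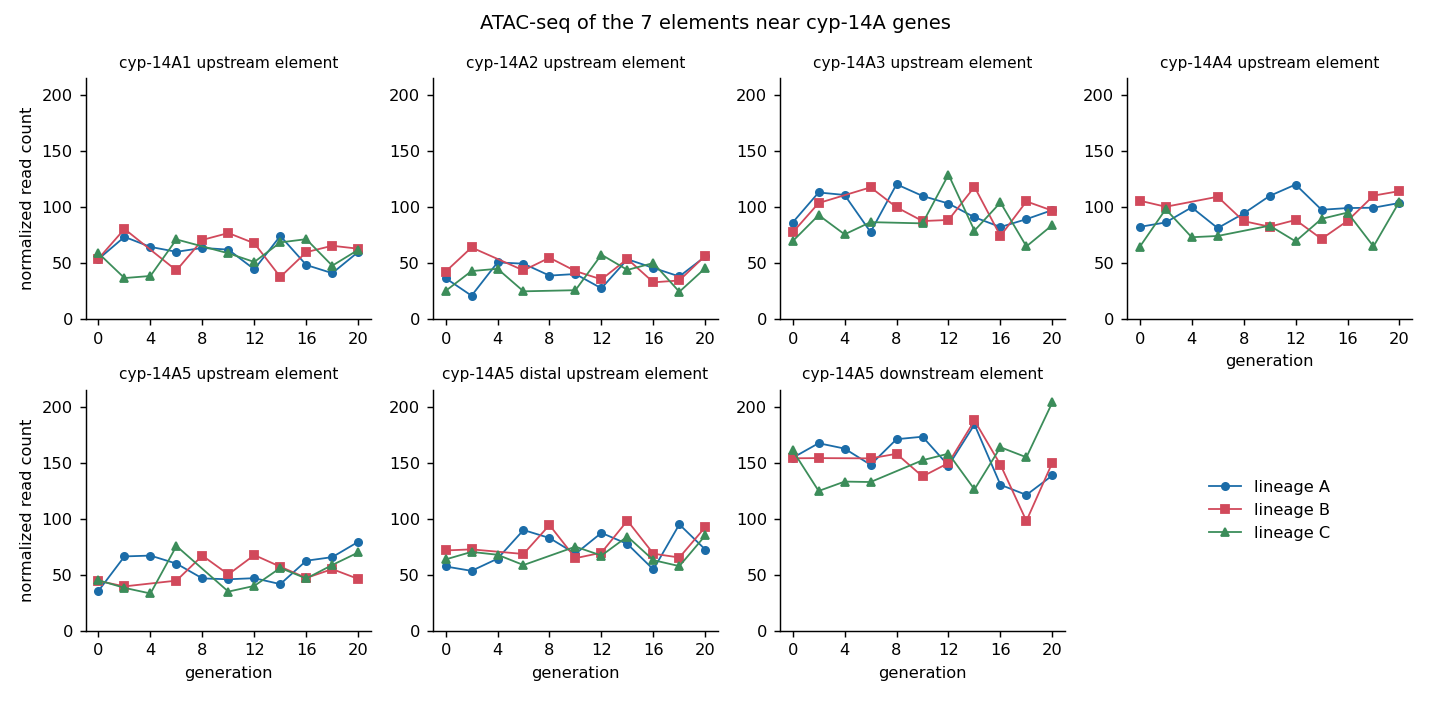
Normalized ATAC-seq read count against generation for the 7 elements near cyp-14A genes, 1 point per library and 1 line per lineage, on one common axis. The cyp-14A5 upstream element lies between 33.3 and 79.5 in all libraries, and later libraries overlap generation 0 in each panel.

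**Figure D4:**
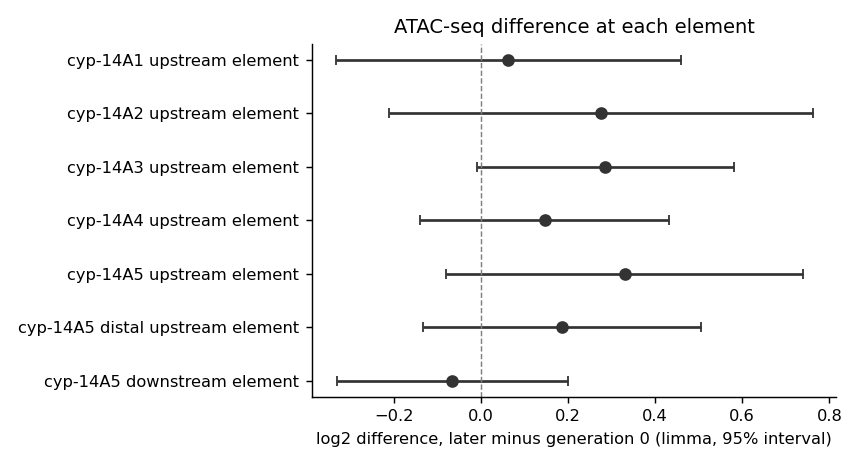
Log2 difference of ATAC-seq counts, later generations minus generation 0, at each of the 7 elements, with 95% intervals from limma. Each interval includes 0, and the highest estimate is 0.33 at the cyp-14A5 upstream element.

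The lineages were then compared over the 28 later libraries, with generation as a covariate. No element near a cyp-14A gene passed the test for a difference between lineages (limma, adjusted p between 0.810 and 0.969), and across all 31506 elements tested 0% passed, with 1676 at an unadjusted p under 0.05. The highest range between lineage means, at the cyp-14A4 upstream element, was 0.26 on the log2 scale, where lineage A had a later median of 99.3 normalized counts, lineage B 88.5 and lineage C 83.4. No element near a cyp-14A gene passed the test for a trend over generations 2 to 20. Per 10 generations the log2 slopes lay between -0.10 and 0.16 (limma, adjusted p between 0.942 and 0.992), the highest again at the cyp-14A5 upstream element (0.16 ± 0.11, SE). Across all elements 0.00317% had such a trend (1 of 31506). By Z-score 3 of 196 values at the 7 elements were called, all in lineage C, as DOWN once at the cyp-14A1 upstream element and UP once each at those of cyp-14A2 and cyp-14A3. Over all elements and later libraries 3.06% of values were called, and none of the 3 calls formed a run.

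No correlation between RNA and accessibility within lineages passed the test in later libraries. Over the 27 later libraries with both data types, and with lineage means removed, the 6 pairs of a gene with a mean of at least 10 normalized counts and an element within 2 kb of it were correlated. For cyp-14A5 and its upstream element Pearson's r was 0.01 (permutation p = 0.958, adjusted p = 0.995) and Spearman's rho 0.01 (permutation p = 0.971). Without the 2 libraries farthest from the median accessibility r was -0.17. The highest r was 0.22, for cyp-14A1 and its upstream element (permutation p = 0.355, adjusted p = 0.995), with a rho of -0.03, and without the 2 farthest libraries it was -0.22. All 6 adjusted p-values of r were 0.995, those of rho were 0.971, and r was negative for 2 pairs. Within single lineages r of cyp-14A5 with its upstream element was -0.12 in lineage A, -0.56 in lineage B and 0.25 in lineage C. The low-count genes cyp-14A3 and cyp-14A4 were added after the data had been seen, and their pairs gave r between -0.15 and -0.13 (permutation test, adjusted p = 0.862).

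Antisense small RNAs of these 5 genes are not analysed here. 22G-RNAs are antisense small RNAs made by RNA-dependent RNA polymerases that can silence genes across generations. The 22G-RNA table lists genes with as few as 3 reads in total over its 31 libraries, and holds 8 of the 69 other genes named cyp- in the RNA-seq table. How the genes of this table were selected was not given, so that the absence of the 5 cyp-14A genes is not read as a count of 0.

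The step of cyp-14A5 fell in a comparison in which much of the transcriptome moved. Between generation 0 and later generations 39.6% of the 16714 genes with a mean of at least 10 normalized counts changed by limma (6626 genes, 2961 higher and 3665 lower later), with a median log2 difference over all of 0.02. Leaving out lineage B or C gave 3730 or 3741 genes. By its log2 difference cyp-14A5, which was chosen for it, ranked 25 of 16714 from the highest. All 10 early embryo markers, maternal RNAs such as mex-6 and spn-4, fell, and their summed level was between 48881 and 90648 normalized counts in generation 0 and between 24999 and 60605 later. The level of spn-4, a translational regulator of the early embryo, fell by 1.002 ± 0.14 on the log2 scale (SE, limma, adjusted p = 4.99e-06), from between 9384 and 16531 in generation 0 to between 4610 and 8451. Of 10 late embryo and cuticle markers 2 rose and none fell, and 1 of them, the cuticle collagen sqt-3, was higher later by 0.45 ± 0.11 (SE, limma, adjusted p = 0.00101). For the label embryo, the early embryo markers were read in every library, the 6 adult yolk genes summed to between 1901 and 3605 normalized counts, and 25 of the 26 sperm markers were below a mean count of 10. In bulk embryos fewer cells of a type and less RNA per cell cannot be told apart. The part of embryo stage in the cyp-14A5 values was not tested.

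Intestine genes moved in both directions, with 4 of 12 markers higher later, 3 lower and 5 that did not pass, a share of 58.3% against the 39.6% of all genes, and without lineage C 4 were higher and 0 lower. The vacuolar ATPase subunit vha-6 rose by 0.75 ± 0.11 on the log2 scale (SE, limma, adjusted p = 8.27e-06) and the intermediate filament gene ifb-2 by 0.61 ± 0.11 (SE, limma, adjusted p = 8.67e-05), while the early endoderm factor end-3 fell by 0.69 ± 0.20 (SE, limma, adjusted p = 0.00656). The summed level of the 12 was between 75726 and 82614 normalized counts in generation 0 and between 85949 and 131007 later. A sum follows its most abundant genes, and 3 of the 12 fell. The part of intestine RNA in the cyp-14A5 values was not tested.

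The partners and regulators of P450 enzymes did not share a direction. Of 15 genes, 2 rose, 3 fell and 10 did not pass, a share of 33.3% against the 39.6% of all genes. Without lineage C 1 rose and 0 fell. The nuclear hormone receptor gene nhr-8, needed for resistance to toxins, rose by 0.68 ± 0.14 on the log2 scale (SE, limma, adjusted p = 0.000205), from between 517 and 672 normalized counts to between 673 and 1474. The cytochrome b5 gene cytb-5.1 fell by 0.39 ± 0.13 (SE, limma, adjusted p = 0.0144), and the receptor gene nhr-86 by 0.38 ± 0.11 (SE, limma, adjusted p = 0.00785).

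Other P450 genes moved as often as genes in general and more of them down. Of the 69 other genes named cyp-, 58 had a mean of at least 10 normalized counts, and 6 rose, 17 fell and 35 did not pass, a share of 39.7%. Without lineage C 0 rose and 8 fell, without lineage B 3 and 8, and without lineage A 6 and 7. Their median log2 difference was -0.18. Among them, all 7 cyp-35 genes that could be tested fell, with a median of -1.58, opposite in sign to cyp-14A5. Leaving out lineage A reduced the 7 to 3, leaving out lineage B or C to 4, and none rose. The courses also differed in time. Summed over its 10 genes, cyp-35 RNA was between 9390 and 12788 normalized counts in generation 0, still between 10059 and 13683 in generation 2, and between 2297 and 4121 in every library from generation 4. In generation 2 the level of cyp-14A5 was thus already up, while cyp-35 RNA was not yet down.

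Stress genes marked the same generation. The summed level of 14 stress and pathogen response genes, which include heat shock genes, was between 9902 and 11380 normalized counts in generation 0, between 105894 and 392298 in the 3 libraries of generation 2, and between 55042 and 72787 in those of generation 10. In the other later libraries it was between 10606 and 28358. Of the 13 tested, 4 rose, 1 fell and 8 did not pass, a share of 38.5% against the 39.6% of all genes, and without lineage B or C 2 rose. DESeq2 had 8 that rose. The heat shock gene hsp-70 was higher later by 3.70 ± 1.35 on the log2 scale (SE, limma, adjusted p = 0.0308), the infection response gene irg-1 by 2.43 ± 0.54 (SE, limma, adjusted p = 0.000779), and the metallothionein gene mtl-1 by 1.54 ± 0.24 (SE, limma, adjusted p = 1.61e-05). The level of cyp-14A5 stayed up in generations 4 to 8 and 12 to 20, and without generation 2 its log2 difference was 3.34 ± 0.26 (SD, n = 3 lineages). Generation 2 of lineage C, highest in stress RNA, had the lowest later level of cyp-14A5 and no read of cyp-14A1. The part of stress in these values was not tested.

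**Figure D5:**
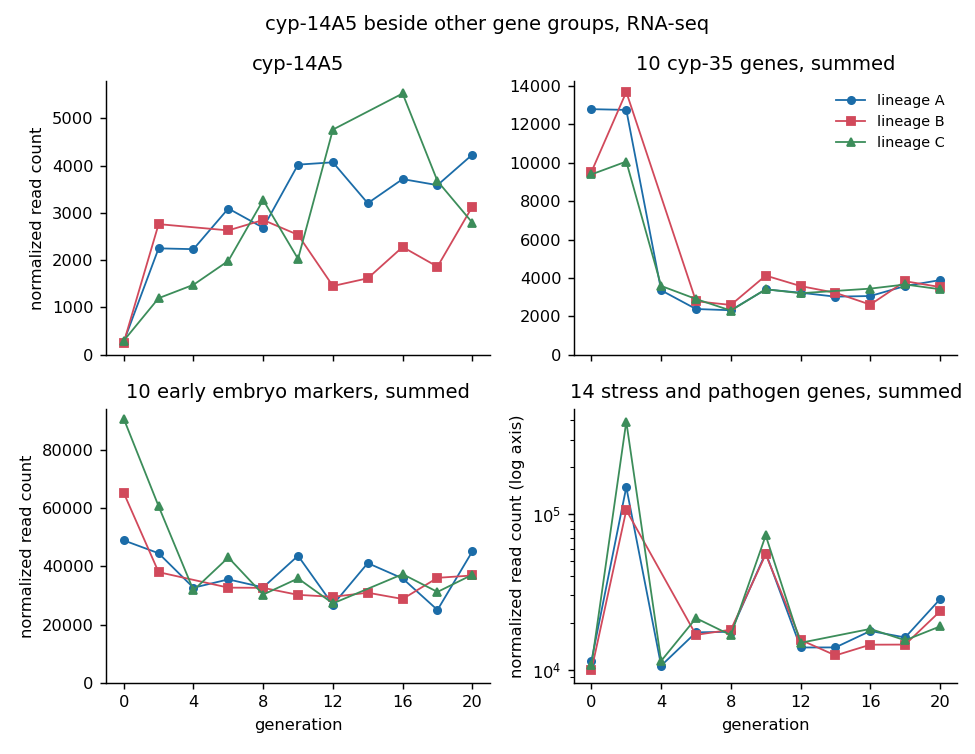
Normalized read counts against generation for cyp-14A5 and, summed, for 10 cyp-35 genes, 10 early embryo markers and 14 stress and pathogen response genes (log axis in the last panel), 1 point per RNA-seq library and 1 line per lineage. Between generations 0 and 2 cyp-14A5 goes from at most 296 to at least 1195, the cyp-35 sum is between 9390 and 13683 in generations 0 and 2 and at most 4121 from generation 4, and the stress sum peaks in generations 2 and 10.

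The neighbours of cyp-14A5 differed in direction, and are given by value. F08F3.6, on the downstream side, held between 1808 and 3247 normalized counts in generation 0 and between 667 and 1813 later. The ammonium transporter gene rhr-1, on the upstream side, held between 118 and 193 in generation 0 and between 69.3 and 1179 later, with a median of 400. The non-coding genes linc-96 and F08F3.12 stayed at or below 9.65. Beside the X-linked genes, K09A11.1 held between 1389 and 2090 in generation 0 and between 675 and 2118 later, phf-33 between 45.9 and 58.99 and between 37.2 and 124, and K08H2.10 between 47.0 and 89.0 and between 14.4 and 112.7. On the side of cyp-14A4 away from phf-33, R04D3.2 held between 1416 and 3386 and between 787 and 2213, R04D3.3 between 501 and 1092 and between 172 and 429, and R04D3.4 between 509 and 1075 and between 250.3 and 579.7. Later libraries below all of generation 0 numbered 21 of 28 for R04D3.2, 28 for R04D3.3, 26 for R04D3.4 and 27 for F08F3.6. For rhr-1, 24 of 28 lay above generation 0, and the 3 of generation 2 lay below it, between 69.3 and 73.9. Among all genes tested 39.6% changed between these groups by limma, and the share with such counts is not given here. The non-coding gene R04D3.14 stood at or below 2.02.

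Among 16711 other genes, those with the courses most like cyp-14A5 over the 31 libraries, with lineage means removed, were E03H4.8 (Pearson's r = 0.97), the F-box gene fbxa-79 (r = 0.96) and F13A7.11 (r = 0.95). They share its step from generation 0 and the libraries. E03H4.8 held between 451 and 533 normalized counts in generation 0 and between 1008 and 2314 later. The levels of fbxa-79 were between 126 and 167 and between 302 and 724, and those of F13A7.11 between 60.0 and 82.2 and between 167 and 404. Generation 0 is among the 31 libraries, so that r itself selects genes with this step. In these 3 genes no later library overlapped generation 0, which is therefore not a separate result. The rise of each was smaller than that of cyp-14A5. For cyp-14A1 the most similar genes were egal-1, F07G11.2 and C50F7.6 (r = 0.85, 0.84 and 0.83), and for cyp-14A2 gap-1, fbxa-188 and gar-1 (r = 0.81 each). None of these 6 is another cyp- gene. Generation 2 of lineage C, where cyp-14A1 held 0 reads and cyp-14A2 1, is among the 31 libraries. The part of that library in the r values of cyp-14A1 and cyp-14A2 was not tested.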

How the data were processed

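The deposited values of all 3 data types are a normalized signal. To make them, the authors mapped RNA-seq and ATAC-seq reads to WS252 (Bowtie2), counted reads per gene or element (BEDTools) and scaled each library by a size factor from DESeq2, keeping the longest transcript of a gene; 22G-RNAs were mapped with Bowtie, allowing no mismatch. Versions are not given in the sources used here. A deposited 1 stands for a count of 0, except in the small RNA values. With these restored, 100% of values were whole multiples of 1 step per library within 0.001 read, which gave the recovered reads. The total over elements was between 2995631 and 12251653 reads per ATAC-seq library, and the elements near cyp-14A genes held between 16 and 358 reads, which limits their precision.

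Values were log2 transformed after adding 1. Loci with a mean of at least 10 normalized counts were tested with limma 3.58.1 (moderated, robust, with a mean trend) blocked by lineage, with p-values adjusted after Benjamini and Hochberg and a threshold of 0.05. The lineage is given by the labels. Deviations of generation 0 and of later libraries from their group means correlated within lineages (A, B, C) at 0.12, 0.26 and 0.53 in RNA-seq and at -0.15, 0.46 and 0.53 in ATAC-seq. For lineage A the correlation with another lineage was higher, at 0.36 in RNA-seq and 0.13 in ATAC-seq. Correlations were tested with 100000 permutations of generations within lineages. Differences of members are means over lineages of the mean later log2 value minus generation 0, and Z-scores followed the linear model of the log2 ratio on the log2 mean. Alternatives were other pseudocounts, filters, cut-offs and references, TMM scaling, no block, count models of the recovered reads in edgeR 4.0.16 and in DESeq2 1.42.0, and each lineage left out. R 4.3.3, Python 3.11.15 and scipy 1.17.1 were used, and the fits were tested on simulated data.

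The members and gene lists were chosen with earlier results of these data known. Named are the 5 genes, every element within 2 kb, neighbours within 5 kb, and the 3 genes most correlated with each member of mean 10 or more. From the lists, estimates are given only for genes among the 3 per list with the largest change past the threshold, and not for all of these. The planned 22G-RNA tests were not run, since none of the members is in that table.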

Additional observations from a re-analysis of the deposited data

Results flagged for a closer look

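In 36 sets of 9 or 10 later libraries of 1 lineage, 1 set for each gene or element, 2 values stood apart from the rest by Dixon's criterion, which chance alone reaches in about 1 of 20 sets. The level of cyp-14A1 was 0 in generation 2 of lineage C, while the other 8 later libraries of that lineage lay between 21.3 and 37.3 normalized counts. This is also the library with the highest summed level of stress genes. The cyp-14A5 downstream element had 98.2 normalized ATAC-seq counts in generation 18 of lineage B, while the other 8 later libraries lay between 138 and 188.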

How the results depend on the processing

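Of the differences of the 5 genes in RNA-seq from generation 0, that of cyp-14A5 lay between 3.15 and 3.35 on the log2 scale under the alternatives tried, and all 5 moved by less than the SD between lineages, though that of cyp-14A4 went from -0.46 to 0.13 without lineage B. Without 1 lineage the genes called in RNA-seq went from 6626 to between 3730 and 6070, and the elements called in ATAC-seq from 0 to between 0 and 7. DESeq2 on recovered reads called 344 elements, none near a cyp-14A gene. Without the lineage as a replicate block, 6578 genes and 0 elements were called. The 1 element with a trend was lost over generations 4 to 20 (0), and without 1 lineage there were between 0 and 1. The 3 Z-score calls at elements near cyp-14A genes became 0 at a cut-off of 3 and 0 against the mean of the 3 libraries of generation 0. For cyp-14A5 between 22 and 28 values were called, the fewest at a cut-off of 3, for cyp-14A4 between 5 and 9, and for cyp-14A2 between 0 and 4. In no alternative did a correlation of RNA-seq with ATAC-seq pass. Leaving out generation 2 or the 4 libraries with few silent genes was added after seeing the data. Correlations with 22G-RNA were not run. Depth limits cyp-14A3 and cyp-14A4 most, with 3 reads or fewer in 11 and 14 of 31 libraries.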
